A study of Mus musculus with 12 samples.

Results

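Nuclear genes for complexes II to V of the mitochondrial respiratory chain, and for the electron carrier cytochrome c, were followed through infarction and through infarction with an Irx3 vector. They were taken as the protein-coding rows of the gene table named Sdha, Sdhb, Sdhc, Sdhd, Cyc1 or Cycs, or with names that start with Uqcr, Atp5, Cox4, Cox5, Cox6, Cox7 or Cox8. That gave 51 of 56748 rows, of which 4 belong to complex II, 9 to complex III, 1 is cytochrome c, 19 belong to complex IV and 18 to complex V. The table uses older symbols, such as Atp5a1 and Atp5b for the catalytic head of the ATP synthase. The rule reads gene names and no measured value.

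Left ventricles of wild type C57BL/6J mice gave polyadenylated RNA for sequencing, with 4 libraries in each of 3 groups and tissue taken 14 days after surgery. The sham group received an AAV9 control vector and sham surgery. The infarcted control group received the same control vector and an infarction by ligation of the left anterior descending coronary artery. The infarcted Irx3 group received an AAV9 vector for Irx3, a homeobox transcription factor, and the same ligation. All mice thus carried a virus, given by tail vein, and without sham-operated mice on the Irx3 vector, its comparison is limited to infarcted hearts. No source used here gives the promoter of the vector, the age of the mice or the part of the ventricle sampled (infarct, border or remote muscle). The labels call the cells cardiomyocytes, but markers of fibroblasts, macrophages, endothelium and mural cells were all detected, so the tissue was read as whole ventricle. Irx3 itself stood at 24.5 CPM ± 2.65 (SD, n = 4) in sham hearts, 23.1 ± 6.89 in the infarcted control group and 393.5 ± 111.4 in the infarcted Irx3 group, where CPM is the read count scaled to the normalised library size. The libraries held 13352604 to 19236721 counts.

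The respiratory chain moves electrons from fuel to oxygen and uses the energy to build a proton gradient across the inner mitochondrial membrane. Complex II, the succinate dehydrogenase, takes electrons from succinate in the citric acid cycle and is encoded by nuclear genes alone. Complex III passes them to cytochrome c, complex IV (cytochrome c oxidase) passes them on to oxygen, and complex V, the ATP synthase, uses the gradient to make ATP. Complexes III to V are each built from nuclear subunits together with a few that mitochondrial DNA encodes. Heart muscle is packed with mitochondria and depends on this route for most of its ATP, and it uses muscle forms of several complex IV subunits in place of the forms found in most other tissues.

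Promoter windows are shown for 4 members whose transcripts behaved differently after infarction, since they place known regulatory motifs beside members that fell and members that did not. Cox8b is the muscle form and Cox8a the widespread form of the same complex IV subunit, Cox6a1 is the widespread form of another, and Sdhd is a membrane anchor of complex II. Each window is the 250 bases before the transcription start in RefSeq on GRCm38.p6, printed 5′ to 3′ on the strand of the gene, with motif matches in capitals.
Cox8b (chr7:140900447-140900696, minus strand): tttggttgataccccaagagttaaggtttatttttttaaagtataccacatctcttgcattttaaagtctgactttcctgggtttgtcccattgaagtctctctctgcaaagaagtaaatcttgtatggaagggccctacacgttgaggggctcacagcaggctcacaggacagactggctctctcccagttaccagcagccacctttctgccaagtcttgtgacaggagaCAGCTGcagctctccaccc
Cox8a (chr19:7217617-7217866, minus strand): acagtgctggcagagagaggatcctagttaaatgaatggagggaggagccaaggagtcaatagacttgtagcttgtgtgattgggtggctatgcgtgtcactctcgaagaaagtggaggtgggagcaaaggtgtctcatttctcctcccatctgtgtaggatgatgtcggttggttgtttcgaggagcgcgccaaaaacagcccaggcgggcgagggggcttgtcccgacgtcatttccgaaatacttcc
Cox6a1 (chr5:115348959-115349208, minus strand): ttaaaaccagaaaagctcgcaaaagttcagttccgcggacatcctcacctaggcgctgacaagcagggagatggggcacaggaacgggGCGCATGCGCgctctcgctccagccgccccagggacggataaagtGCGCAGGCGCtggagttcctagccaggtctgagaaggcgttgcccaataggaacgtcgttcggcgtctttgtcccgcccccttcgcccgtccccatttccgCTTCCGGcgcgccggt
Sdhd (chr9:50603850-50604099, minus strand): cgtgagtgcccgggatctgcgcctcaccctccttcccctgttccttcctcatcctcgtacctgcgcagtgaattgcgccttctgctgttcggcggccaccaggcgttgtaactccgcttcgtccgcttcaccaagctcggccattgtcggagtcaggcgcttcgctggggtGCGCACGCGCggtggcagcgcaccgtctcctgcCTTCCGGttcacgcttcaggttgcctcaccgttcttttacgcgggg

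The motifs were searched on both strands by their letters: NRF1 as GCGCA and GCGC with 1 base of any kind between them, ETS (the family of GABPA) as CCGGAAG, the element of estrogen-related receptors as AAGGTCA, the muscle E-box as CAGCTG and MEF2 as CTA and TAG with 4 bases of any kind between them. NRF1 and GABPA are the textbook activators of nuclear respiratory genes. The Cox6a1 window holds NRF1 matches that begin 162 and 117 bases before the start and an ETS match, read from the opposite strand, 16 bases before it. The Sdhd window holds an NRF1 match 79 bases and an ETS match 46 bases before the start. The Cox8b window holds an E-box 19 bases before the start and none of the other motifs, and the Cox8a window holds none of the 5. RefSeq windows were matched for 37 of the 51 members, 40 windows in all. NRF1 was found in 7 of the 40 (17.5%) against 3.74% of 32851 windows over all genes, and ETS in 9 (22.5%) against 6.91%. The estrogen-related receptor element was in 5% of member windows against 4.08%, the E-box in 5% against 13% and MEF2 in 2.5% against 3.2%. These are letter matches and not measured binding, and Cox6a1 (which did not fall after infarction) and Sdhd (which did) share NRF1 and ETS matches.

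In sham hearts the members made up 3.41% to 3.68% of all counts. Their share was 1.13% to 2.43% in the infarcted control group and 1.40% to 2.42% in the infarcted Irx3 group, so every infarcted library lay under every sham library. Per kilobase of transcript the most abundant member in sham hearts was Atp5b, the catalytic beta subunit of the ATP synthase, at 3650 CPM per kb ± 165 (SD, n = 4). It was followed by Atp5a1, the alpha subunit, at 3150 ± 268, and by the complex IV subunit Cox4i1 at 3042 ± 395, which did not differ beyond their SD. Atp5g1, a gene for the membrane rotor, stood at 2684 ± 238 and the muscle subunit Cox6a2 at 2620 ± 286. At the low end were Cycs at 95.5 ± 5.78, Cox4i2 at 13.2 ± 0.704 and Cox6b2 at 5.31 ± 1.29 CPM per kb. Atp5b was first in all 3 groups, at 1656 ± 510 in the infarcted control group and 1486 ± 437 in the infarcted Irx3 group.

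Of the 51 members 48 passed the filter on low counts. Cox8c had no count in any library, Cox7b2 had at most 4, and a repeat row of Atp5o had none. Cox5b-ps, a retrocopy of Cox5b that the table lists as protein coding, held 10.4% to 12.4% of the Cox5b count in every library, so part of its signal may be reads of Cox5b and its values are uncertain.

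Replicate 4 of both infarcted groups stood apart from its group. In the infarcted control group it was the lowest of 4 for 44 of the 48 members, with a median deviation of -0.92 (log2) from the group median. In the infarcted Irx3 group it was the highest for 47 of 48, at a median of 0.73 above. Results that rest on these libraries are given with and without them. Because the members' own values set these libraries apart, fits without them show a dependence and are not separate tests. Across genes, the Irx3 comparison also followed the GC content of transcripts, and values with a correction for it are given beside those results.

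**Figure D1:**
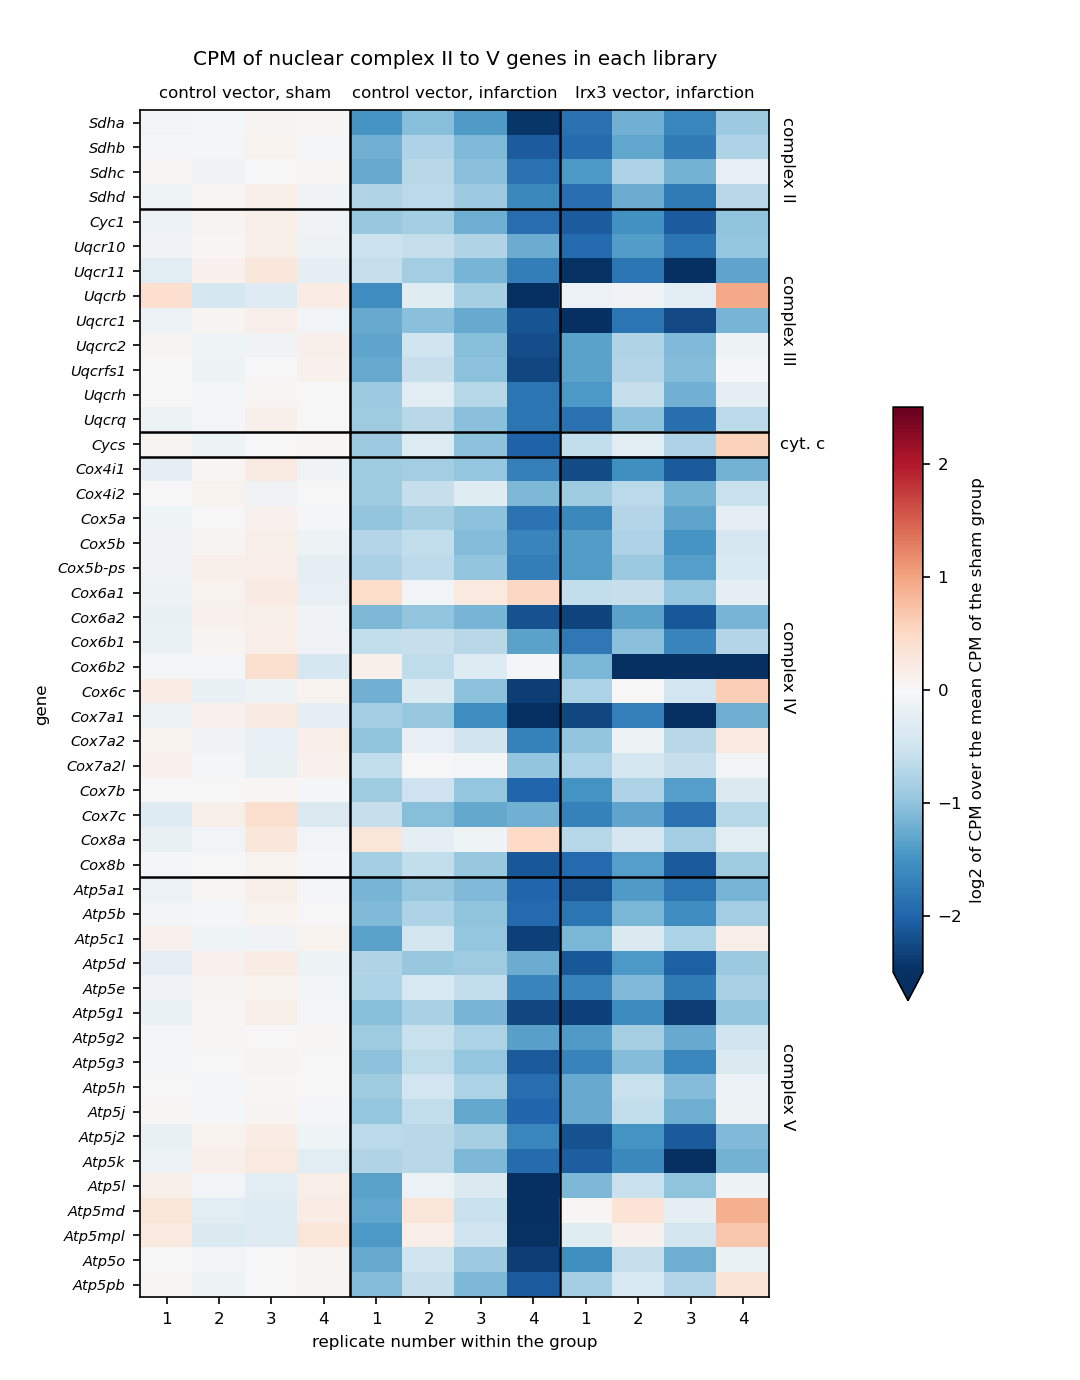
Heat map of the 48 tested members (rows, by complex) in the 12 libraries (columns, by group and replicate number), colored by the log2 ratio of CPM to the mean of the sham group, with the scale ending at -2.5. Nearly all members are lower in the 8 infarcted libraries, with replicate 4 lowest in the infarcted control group and highest in the infarcted Irx3 group; Cox6a1 and Cox8a stay near the sham level in the infarcted control group.

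After infarction under control vector, transcripts of complexes II, III, IV and V were lower together. Of 48 members 39 fell and none rose (edgeR quasi-likelihood test, Benjamini-Hochberg adjusted p under 0.05 over 15742 genes), where 22.4% of all genes tested fell and 26.3% rose. None rose at an unadjusted p under 0.05 or by DESeq2 either. The median log2 fold change was -1.03 against 0.01 for all genes, and 40 members had every infarcted library under every sham library, against 22.8% of all genes. All 4 members of complex II fell (median -1.19), 8 of 9 of complex III (median -1.13), 12 of 17 of complex IV (median -0.99) and 14 of 17 of complex V (median -1.05). With the GC correction 40 fell, among them the same 39, where 23.1% of all genes fell. Without both replicates numbered 4 it was again 40, including those 39, with a median of -0.83, where 21.3% of all genes fell. With both changes 40 fell and 1, Cox6a1, rose, where 21.6% of all genes fell and 28% rose. When a change beyond 1.5-fold was required (glmTreat in edgeR), 11 members still passed as lower, against 7.81% of all genes.

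Complex II changed in its catalytic and its anchor subunits. Sdha, the flavoprotein that oxidizes succinate, stood at 2446, 2478, 2662 and 2606 CPM in sham replicates 1 to 4 and at 921, 1220, 953 and 472 in the infarcted control group. The groups were far apart, and Sdha fell to 35.0% of its sham level (log2 fold change -1.51 with SE 0.28, edgeR adjusted p = 0.000809), the smallest p of complex II. Sdhb, the iron-sulfur subunit, went from 874, 891, 965 and 889 CPM to 395, 527, 422 and 213 (log2 fold change -1.22 with SE 0.28, edgeR adjusted p = 0.0033). The membrane anchors Sdhc and Sdhd hold the heme and bind ubiquinone. Sdhc was 475, 434, 458 and 471 CPM in sham hearts and 192, 284, 222 and 126 after infarction (log2 fold change -1.16 with SE 0.27, edgeR adjusted p = 0.00316). Sdhd was 549.9, 616, 657 and 561 CPM and 353, 374, 318 and 196 (log2 fold change -0.94 with SE 0.26, edgeR adjusted p = 0.00913). For all 4 genes the highest infarcted library lay under the lowest sham library, and the lowest value of each was in replicate 4.

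In complex III the lead was Uqcrc1, a core subunit, at 1867, 2166, 2261 and 1984 CPM in sham hearts and 865, 1007, 869 and 462 after infarction (log2 fold change -1.37 with SE 0.30, edgeR adjusted p = 0.00218). The second core subunit Uqcrc2 stood at -1.15 (SE 0.32 and edgeR adjusted p = 0.00976) and the Rieske iron-sulfur protein Uqcrfs1 at -1.16 (SE 0.33 and edgeR adjusted p = 0.00993). Cyc1, the cytochrome c1 heme subunit that hands electrons to cytochrome c, was 1154, 1340, 1421 and 1213 CPM in sham hearts and 669, 712, 552 and 341 after infarction (log2 fold change -1.17 with SE 0.27, edgeR adjusted p = 0.00334). Both groups lay fully apart for Uqcrc1 and Cyc1. Of the complex III members that passed, the small subunit Uqcr10 fell least, from 228, 253, 269 and 224 CPM to 168, 161, 146 and 103 (log2 fold change -0.76 with SE 0.21, edgeR adjusted p = 0.00904). Uqcrb was the member of complex III that did not pass, at 99.3, 54.5, 59.1 and 84.4 CPM in sham hearts and 25.2, 60.6, 41.7 and 8.83 after infarction (log2 fold change -1.13 with SE 0.45, edgeR adjusted p = 0.0529), with 1 infarcted library above 2 of the sham libraries. Cycs, the cytochrome c carrier itself, was 315, 273, 298 and 307 CPM in sham hearts and 159, 237, 146 and 73.5 after infarction, again fully apart (log2 fold change -0.96 with SE 0.33, edgeR adjusted p = 0.0273).

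Complex IV held both the members with large falls and those that did not fall. Cox4i1, a regulatory subunit and the complex IV member with the highest level per length in sham hearts, went from 1946, 2353, 2631 and 2137 CPM to 1227, 1245, 1158 and 694 (log2 fold change -1.07 with SE 0.26, edgeR adjusted p = 0.00478). Its alternative form Cox4i2, known from lung and from low oxygen, was scarce throughout and went from 9.69, 10.2, 8.94 and 9.46 to 5.14, 6.40, 7.80 and 4.39 CPM (log2 fold change -0.69 with SE 0.20, edgeR adjusted p = 0.0112). The muscle form Cox6a2 was 1558, 1928, 1960 and 1681 CPM in sham hearts and 815, 897, 794 and 396 after infarction (log2 fold change -1.30 with SE 0.30, edgeR adjusted p = 0.003), the smallest p of complex IV. The muscle form Cox7a1 was 267, 314, 338 and 250.0 CPM and 161, 151, 99.4 and 42.3 (log2 fold change -1.36 with SE 0.36, edgeR adjusted p = 0.00748). The muscle form Cox8b was 333, 341, 364 and 330.3 CPM and 189, 224, 178 and 78.4 (log2 fold change -1.03 with SE 0.30, edgeR adjusted p = 0.0121). All these genes were lower in every infarcted library than in any sham library.

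The widespread forms of the same subunits did not pass. Cox6a1 was 110.5, 128, 139 and 105 CPM in sham hearts and 166, 114, 144 and 174 after infarction, with overlapping groups (log2 fold change 0.31 with SE 0.17, edgeR adjusted p = 0.151). Cox8a was 112, 123, 155 and 122 CPM and 159, 109.9, 118 and 180.4, also overlapping (log2 fold change 0.15 with SE 0.18, edgeR adjusted p = 0.516). Cox7a2 was 200.4, 177, 164 and 211 CPM and 93.6, 163, 134 and 58.0 (log2 fold change -0.75 with SE 0.30, edgeR adjusted p = 0.0559). Unlike Cox6a1 and Cox8a it stood lower, at 59.6% of its sham level. Its groups did not overlap, though its highest infarcted library almost reached the lowest sham library. Replicate 4, the library with the lowest Cox6a2, Cox7a1 and Cox8b, held the highest Cox6a1 and Cox8a of its group. Cox6b1, which bridges the monomers of the complex IV dimer, went from 457, 541, 578 and 483 CPM to 338, 346, 320.3 and 204 (log2 fold change -0.77 with SE 0.24, edgeR adjusted p = 0.0165). Cox6b2, its testis form, was near the detection limit at 2.88, 2.83, 3.89 and 2.15 and 3.19, 1.89, 2.33 and 2.89 CPM (log2 fold change -0.19 with SE 0.40, edgeR adjusted p = 0.723). Cox7a2l had a log2 fold change of -0.35 (SE 0.21 and edgeR adjusted p = 0.191). The other members, Cox5a, Cox5b, Cox5b-ps, Cox6c, Cox7b and Cox7c, all fell, by log2 fold changes from -0.97 for Cox5b to -1.12 for Cox5a.

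In complex V the smallest p was that of Atp5a1, in the catalytic head. It was 6990, 7898, 8592 and 7655 CPM in sham hearts and 3501, 4028, 3632 and 1978 after infarction (log2 fold change -1.24 with SE 0.28, edgeR adjusted p = 0.00259). Atp5b stood at 6993 ± 316 CPM (SD, n = 4) in sham hearts and 3172 ± 977 after infarction (log2 fold change -1.14 with SE 0.28, edgeR adjusted p = 0.00493). The central stalk genes Atp5c1, Atp5d and Atp5e fell, with log2 fold changes of -1.13, -0.94 and -0.79, as did the genes of the outer stalk, Atp5o (-1.11), Atp5h (-0.93), Atp5j (-1.13) and Atp5pb. Atp5pb, the long b subunit of that stalk, was 591, 525, 568 and 598 CPM and 269, 381, 263 and 135 (log2 fold change -1.12 with SE 0.30, edgeR adjusted p = 0.00769). The membrane subunit Atp5j2 was 544, 657, 699 and 572 CPM and 389, 383, 347 and 201 (log2 fold change -0.90 with SE 0.26, edgeR adjusted p = 0.0106), and the e subunit Atp5k had a log2 fold change of -1.05 (SE 0.29 and edgeR adjusted p = 0.00864). Small accessory subunits of the membrane part did not pass: Atp5l stood at -0.85 (edgeR adjusted p = 0.0997), Atp5md at -0.70 (0.23) and Atp5mpl at -0.75 (0.168). Their standard errors were 0.41, 0.47 and 0.43, larger than those of Atp5a1 and Atp5j2.

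The rotor ring of complex V is made of copies of subunit c, which Atp5g1, Atp5g2 and Atp5g3 encode as the same mature protein with different import sequences. Atp5g1 was 1424, 1650, 1760 and 1565 CPM in sham hearts and 766, 916, 714 and 332 after infarction (log2 fold change -1.23 with SE 0.34, edgeR adjusted p = 0.00853). Atp5g2 was 209.5, 219, 215 and 219 CPM and 117, 146, 124 and 84.6 (log2 fold change -0.87 with SE 0.20, edgeR adjusted p = 0.00304). Atp5g3 was 1165, 1210, 1264 and 1204 CPM and 591, 781, 623 and 283 (log2 fold change -1.09 with SE 0.32, edgeR adjusted p = 0.0128). The groups were fully apart for all 3 genes.

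**Figure D2:**
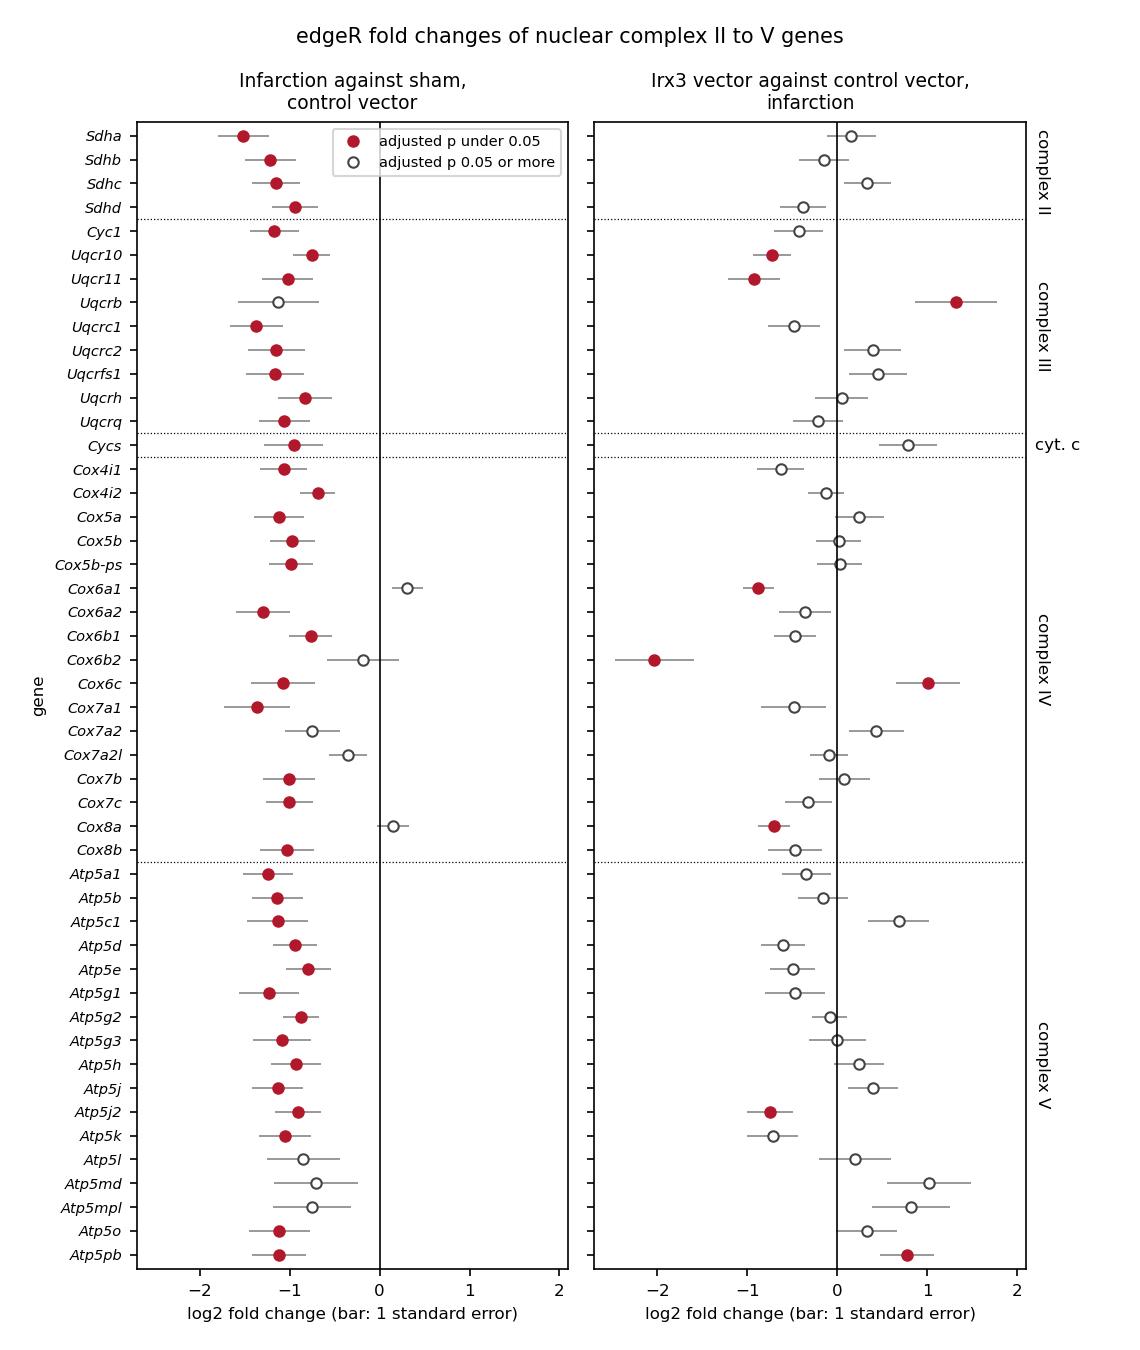
Log2 fold changes of the 48 tested members (points, with bars of 1 standard error) for infarction against sham under control vector (left) and for Irx3 vector against control vector after infarction (right), filled where the adjusted p is under 0.05. On the left 39 members are filled and all lie below 0; on the right 9 are filled, 3 above 0 and 6 below, and the rest scatter around 0.

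Markers of cardiomyocytes, fibroblasts and macrophages moved in the same comparison, where 22.4% of all genes fell and 26.3% rose. Of 10 endothelial markers 1 rose and 2 fell (median log2 fold change -0.21). Of 10 pericyte and smooth muscle markers 2 rose and 3 fell (median 0.51), and of 4 measured brown fat markers 1 rose and 1 fell. Of 12 cardiomyocyte markers 9 fell and none rose, with a median log2 fold change of -1.10, and none of the 12 was at 0 counts. Their summed level was 111100 to 127200 CPM in sham hearts and 30570 to 74980 in the infarcted control group. All 10 fibroblast markers rose (median 3.76), from a summed 716 to 919.5 CPM to between 13420 and 37130 CPM, and all 10 macrophage and monocyte markers rose (median 2.23), from between 391.9 and 486.4 CPM to between 1227 and 2825. In ventricle RNA, fewer muscle cells and less transcript per muscle cell cannot be told apart. Set against the summed cardiomyocyte markers of the same library, the summed members came to 33.9% to 35.0% in the 4 sham hearts. The ratio was 32.3%, 31.8%, 34.5% and 35.5% in replicates 1 to 4 of the infarcted control group and 30.9%, 31.0%, 34.0% and 37.6% in the infarcted Irx3 group. The sums of members and muscle markers thus moved nearly in step across the 12 libraries, from 44130 CPM of members beside 127200 CPM of markers in sham replicate 3 to 10850 beside 30570 in replicate 4 of the infarcted control group. Replicate 4 of the infarcted control group had the most fibroblast marker RNA (37130 CPM) and the least muscle marker RNA, and replicate 4 of the infarcted Irx3 group had the least fibroblast marker RNA of the infarcted libraries (3928 CPM).

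**Figure D3:**
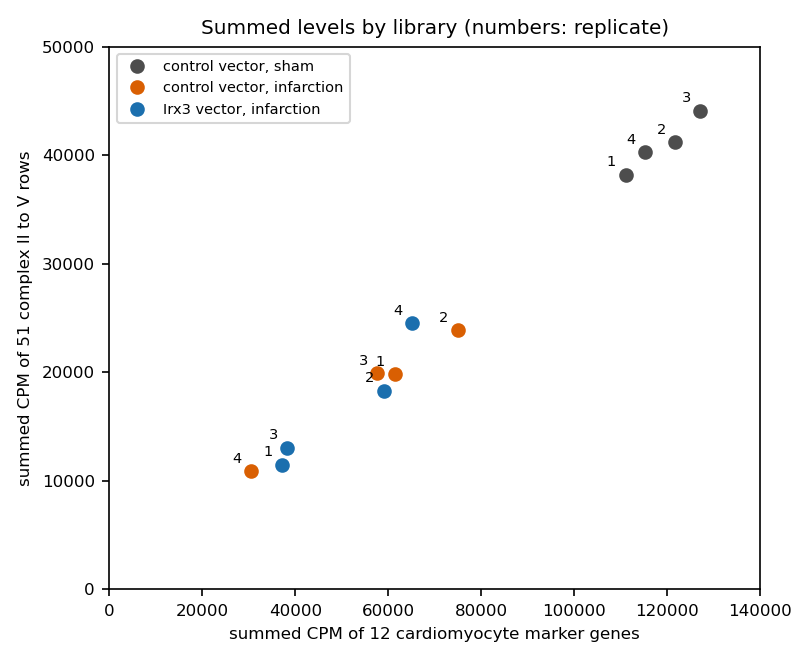
Summed CPM of the 51 member rows (vertical axis) against summed CPM of 12 cardiomyocyte markers (horizontal axis), 1 point per library, colored by group and labelled with the replicate number. The 12 points lie close to a line through the origin, with members at 30.9% to 37.6% of the marker sum, and replicate 4 of the infarcted control group is the lowest point.

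Whether the muscle forms of complex IV subunits fell more than their widespread partners was measured as the log2 ratio of the 2 genes within each library, which does not depend on library scaling. A ratio in ventricle RNA covers muscle and other cells together, and the part of the cell mix in it was not tested. For 8 pairs and 3 comparisons a two-sided exact permutation test was used, whose smallest p for 4 against 4 libraries is 0.0286, and after adjustment over the 24 tests none passed 0.05. With that floor, passing depends on how many of the tests reach it, so not passing does not measure the size of a change. Infarction gave an unadjusted p under 0.05 for 4 of the 8 pairs. The log2 ratio of Cox6a2 to Cox6a1 was 3.82, 3.91, 3.82 and 4.00 in sham replicates 1 to 4 and 2.29, 2.97, 2.47 and 1.19 after infarction. Every infarcted library lay under every sham library, and the mean difference was -1.66 (exact permutation p = 0.0286, adjusted 0.0571). Per transcript length the 2 genes stood at count ratios of 11.8, 12.6, 11.9 and 13.4 in sham hearts and 4.12, 6.58, 4.64 and 1.91 after infarction. The log2 ratio of Cox8b to Cox8a went from 1.57, 1.47, 1.24 and 1.44 to 0.25, 1.03, 0.60 and -1.20, a mean difference of -1.26 (exact permutation p = 0.0286, adjusted 0.0571). In replicate 4 the widespread Cox8a exceeded the muscle form Cox8b, at a length-corrected count ratio of 0.664. Leaving that library out gave mean differences of -1.31 for Cox6a2 to Cox6a1 and -0.81 for Cox8b to Cox8a.

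The ratio of the remaining muscle pair, Cox7a1 and Cox7a2, moved less. The log2 ratio of Cox7a1 to Cox7a2 was 0.41, 0.83, 1.04 and 0.24 in sham hearts and 0.78, -0.11, -0.43 and -0.46 after infarction, with 1 infarcted library inside the sham range (difference -0.68, exact permutation p = 0.114, adjusted 0.152). Cox4i1 to Cox4i2 moved by -0.38 (exact permutation p = 0.143, adjusted 0.171) and Cox6b1 to Cox6b2 by -0.61 (exact permutation p = 0.114, adjusted 0.152), with overlapping groups. Among the rotor genes the log2 ratio of Atp5g1 to Atp5g2 went from 2.76, 2.91, 3.03 and 2.84 to 2.72, 2.65, 2.52 and 1.97 (difference -0.42, exact permutation p = 0.0286, adjusted 0.0571). That of Atp5g2 to Atp5g3 went from -2.48, -2.46, -2.55 and -2.46 to -2.34, -2.42, -2.32 and -1.74 (difference 0.28, exact permutation p = 0.0286, adjusted 0.0571). With the GC correction the log2 fold changes of the single genes were -0.84 for Atp5g2 and -1.01 for Atp5g3. Atp5g1 to Atp5g3 moved by -0.14 (exact permutation p = 0.0571, adjusted 0.098).

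**Figure D4:**
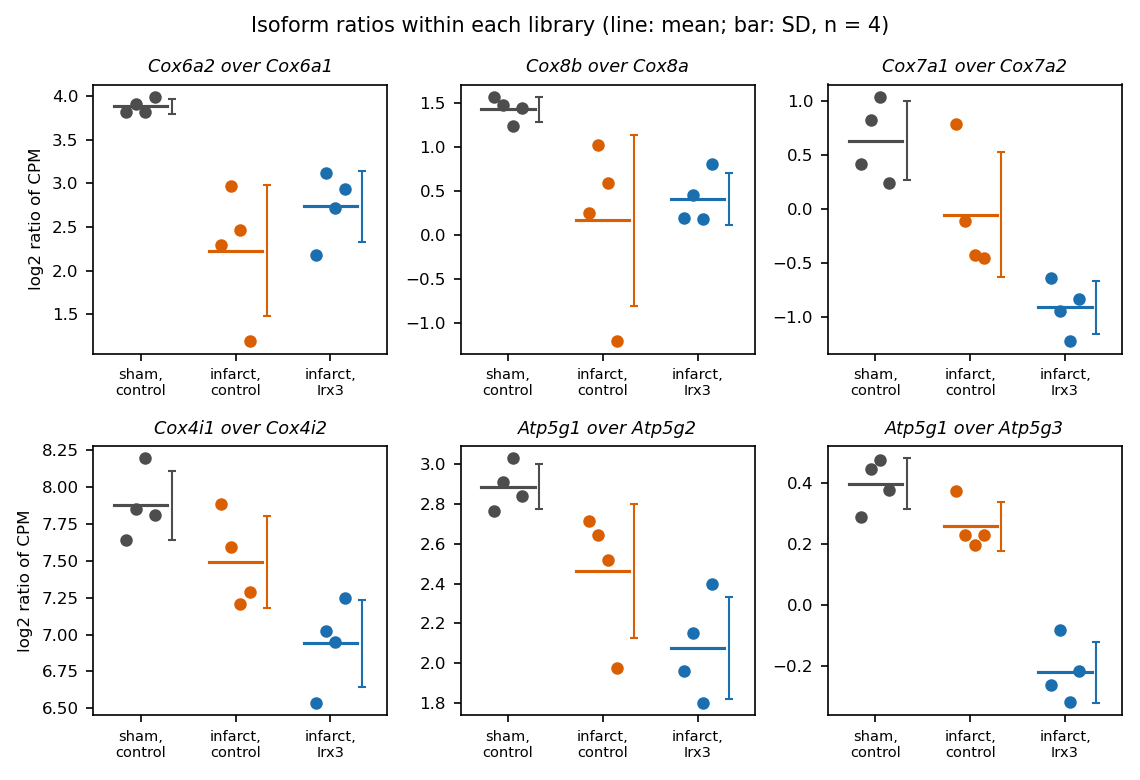
Log2 ratio of CPM for 6 pairs of isoform genes (panels) in each library (points) by group, with the group mean (line) and SD (bar, n = 4). Cox6a2 over Cox6a1 and Cox8b over Cox8a are lower in all infarcted libraries than in any sham library, and Cox7a1 over Cox7a2 and Atp5g1 over Atp5g3 are lowest in the infarcted Irx3 group.

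The proteins that assemble these complexes and the factors that regulate them were read from lists in the same fit. Over all genes tested 22.4% fell and 26.3% rose with infarction, and 23.1% and 30% with the GC correction. Where a list had no rise with infarction, none of its genes rose at an unadjusted p under 0.05 or by DESeq2 either. Of the complex II assembly factors 2 of 4 fell with infarction and none rose, Sdhaf3 at -1.09 (SE 0.31 and edgeR adjusted p = 0.0112) and Sdhaf2, which attaches the flavin to Sdha, at -0.56 (SE 0.20 and edgeR adjusted p = 0.0358). Of 6 measured complex III factors 4 fell and none rose, among them Ttc19 (-0.88, SE 0.18) and Lyrm7 (-1.22, SE 0.30), which both act on the Rieske protein. Of 28 measured complex IV factors 16 fell and none rose (median -0.57; 16 and 1 with the GC correction), among them Cox10 (-1.28, SE 0.20) and Cox15 (-0.72, SE 0.16), enzymes that make its heme a. Of 6 complex V factors 5 fell and none rose, with Atpaf1 (-1.17, SE 0.18) and Atpaf2 (-0.76, SE 0.17), chaperones of the catalytic head, among them. Of 6 mitochondrially encoded subunits of complexes III to V 4 fell and none rose, such as mt-Cytb at -1.37 (SE 0.41). Of 20 transcriptional regulators 9 fell and 2 rose. Esrra, Esrrb and Esrrg, the estrogen-related receptors that drive respiratory genes in muscle, all fell (-1.03, -1.30 and -1.29, with SE 0.20, 0.25 and 0.22), as did the mitochondrial RNA polymerase Polrmt (-0.77, SE 0.15), and Pprc1, a coactivator of the same family as PGC-1alpha, rose (0.75, SE 0.15).

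The second comparison set the Irx3 vector against the control vector among infarcted hearts. 3 members were higher and 6 lower with the Irx3 vector, out of 48, where 25.2% of all genes tested were higher and 24.1% lower. The share of members called in either direction was thus smaller than among all genes (49.3%), and the median log2 fold change was -0.11 against 0.00 for all genes. By complex the counts were 0 of 4 for complex II, 1 higher and 2 lower of 9 for complex III, 1 higher and 3 lower of 17 for complex IV, and 1 higher and 1 lower of 17 for complex V. No gene of complex II passed in edgeR or DESeq2, or at an unadjusted p under 0.05. The groups did not overlap for 1 member that was higher (Uqcrb) and 3 that were lower (Cox6a1, Cox8a and Cox6b2), against 22.1% and 18.9% of all genes. Beyond 1.5-fold (glmTreat) 1 member, Cox6b2, passed as lower and 0 as higher, where 6.89% of all genes were lower and 10.8% higher.

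The members that were higher were 1 subunit each of complexes III, IV and V. Uqcrb was 25.2, 60.6, 41.7 and 8.83 CPM in the infarcted control group and 66.8, 70.1, 61.5 and 142 with the Irx3 vector (log2 fold change 1.32 with SE 0.45, edgeR adjusted p = 0.0268). Cox6c was 313, 243, 253 and 293 CPM in sham hearts, 120.5, 213, 136 and 53.8 in the infarcted control group and 159, 273, 197 and 422 with the Irx3 vector (log2 fold change 1.01 with SE 0.36, edgeR adjusted p = 0.0317). Atp5pb was 310.1, 434, 341 and 714 CPM with the Irx3 vector against the values of the infarcted control group given above (log2 fold change 0.78 with SE 0.30, edgeR adjusted p = 0.0445). Cox6c and Atp5pb overlapped between the groups. Both had also fallen with infarction, a pair of comparisons that share the infarcted control libraries, and against sham they stood at -0.07 (edgeR adjusted p = 0.877) and -0.34 (0.329). With the GC correction none of the 3 passed, at 0.53 for Uqcrb, 0.91 for Cox6c and 0.72 for Atp5pb (edgeR adjusted p = 0.328, 0.064 and 0.0749). Without both replicates numbered 4 none passed either, at 0.64, 0.42 and 0.24 (edgeR adjusted p = 0.0951, 0.142 and 0.273). In those fits 0 members were higher, with 4 at an unadjusted p under 0.05 under the GC correction and 0 without the replicates.

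The members that were lower came from complexes III, IV and V. Cox6a1, which infarction had left near the sham level, was 79.0, 81.0, 61.8 and 103 CPM with the Irx3 vector, under all infarcted control libraries (log2 fold change -0.88 with SE 0.17, edgeR adjusted p = 0.00112). Cox8a was 77.9, 95.6, 69.9 and 105 CPM, also fully under them (log2 fold change -0.70 with SE 0.18, edgeR adjusted p = 0.00628). Cox6b2 was 1.33, 0.192, 0.49 and 0.456 CPM (log2 fold change -2.03 with SE 0.44, edgeR adjusted p = 0.00211), which rests on 27, 4, 9 and 6 counts. Uqcr10 was 63.5, 92.7, 68.7 and 125 CPM (log2 fold change -0.72 with SE 0.21, edgeR adjusted p = 0.0117), and Uqcr11, a partner of the same complex, had log2 fold change -0.92 with SE 0.29, edgeR adjusted p = 0.0169. Atp5j2 was 136, 219, 145 and 286 CPM (log2 fold change -0.75 with SE 0.26, edgeR adjusted p = 0.027). Uqcr10, Uqcr11 and Atp5j2 overlapped between the groups, with replicate 4 of the Irx3 group above replicate 4 of the control group.

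Fold changes of the members in this comparison followed the GC content of their transcripts. The Pearson correlation over the 48 members was -0.667 and Spearman's rho -0.697, and over 15388 genes they were -0.605 and -0.66. The points share the same 8 libraries, so these are descriptions. In the 16 members of lowest GC content (40.8% to 49.1%) the median was 0.42 and 15 of 16 were positive. In the middle 16 (49.4% to 54.7%) it was -0.28 and in the highest (54.8% to 61.1%) -0.47, with 14 of 16 negative. In the infarction comparison under control vector the 2 correlations over members were 0.198 and 0.0917. With a correction for GC content fitted over all genes in each library the members' correlation was 0.023, the medians of these sets were 0.15, -0.10 and 0.04, and 0 members were higher and 3 lower, where 13.3% of all genes were higher and 12.3% lower. The 3 were Cox6b2 at -1.58 (edgeR adjusted p = 0.0199), Atp5j2 at -0.72 (0.0419) and Cox7b at -0.79 (0.0368). Cox6b2 and Atp5j2 passed with and without the correction. Cox6a1 and Cox8a went to -0.22 and -0.05 and no longer passed (edgeR adjusted p = 0.233 and 0.815).

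**Figure D5:**
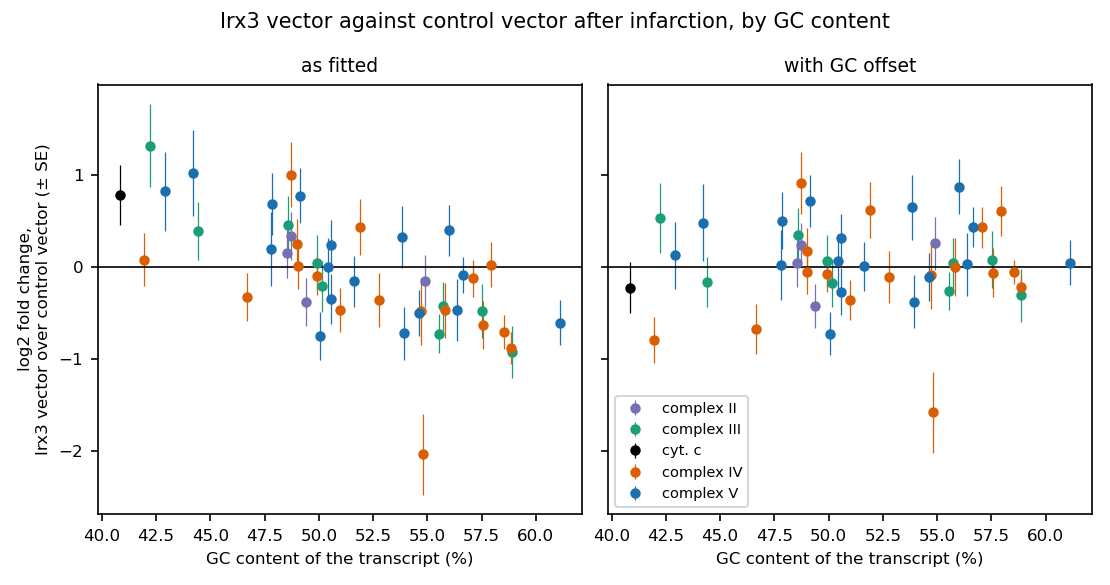
Log2 fold change with Irx3 vector over control vector after infarction (points, with bars of 1 standard error) against the GC content of the transcript in percent, for the 48 tested members colored by complex, as fitted (left) and with the GC offset (right). On the left the 16 members of lowest GC content have a median of 0.42 and the 16 of highest GC content one of -0.47; on the right the medians are 0.15 and 0.04.

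The 2 libraries that stood apart both raised the members' differences in this comparison, one by being low in the control group and the other by being high in the Irx3 group. They were set apart by the members' own values, so leaving out both lowers most members' differences and narrows their spread by construction. The calls without them describe how the result depends on these libraries and are not a separate test. Without replicate 4 of both infarcted groups 24 members were lower and 0 higher with the Irx3 vector, with a median log2 fold change of -0.48, where 22.4% of all genes were lower and 23.3% higher. With the GC correction added it was 19 lower and 0 higher, with a median of -0.41, where 11.3% of all genes were lower and 11.8% higher, and 16 members were called in both fits. Sdhd, for example, was 160.0, 252, 174 and 366 CPM with the Irx3 vector, where replicates 2 and 4 lay within the range of the infarcted control group, and its log2 fold change was -0.38 with all libraries (edgeR adjusted p = 0.237) and -0.84 without the 2 (edgeR adjusted p = 0.00193), also with the correction added (0.00246). Cox4i1 was 483, 786, 527 and 1002 CPM with the Irx3 vector and went from -0.63 (edgeR adjusted p = 0.0614) to -1.02 (0.0014), and to -0.49 (0.0477) with the GC correction added. Uqcrc1 was 365, 582, 432 and 919 CPM and went from -0.48 (0.191) to -0.99 (0.00106), but to -0.47 (0.0593) with the GC correction added, where it no longer passed. With all libraries and the correction it stood at 0.08. Atp5a1 was 1758, 2903, 2195 and 3493 CPM and went from -0.34 (0.314) to -0.71 (0.015), and to -0.61 (0.0296) with the correction added. Sdha, by contrast, was 699, 1106, 821 and 1355 CPM and passed in neither, at 0.16 (0.658) and -0.24 (0.333). The count of members called also depended on single libraries, with 17 without replicate 4 of the infarcted control group, 17 without replicate 4 of the infarcted Irx3 group and 4 without replicate 1 of the infarcted control group. Higher members numbered 7 without replicate 2 of the infarcted control group, 1 without its replicate 3, 1 without Irx3 replicate 2, and 0 without replicate 1 of the infarcted control group or without Irx3 replicate 4. With all libraries 49.3% of all genes were called in either direction. The shares for fits with a library left out are not given, so these counts are not read as particular to the members.

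The other named members did not pass with all libraries, and their values overlapped those of the infarcted control group. Sdhb was 238, 366, 267 and 533 CPM with the Irx3 vector (log2 fold change -0.15), Sdhc 171, 269.7, 203 and 398 (0.34) and Cyc1 302, 450.2, 303 and 637 (-0.43). Cycs was 195, 245, 174 and 446 CPM, with replicate 4 above every sham library (log2 fold change 0.79 with SE 0.33, edgeR adjusted p = 0.0608), and had a log2 fold change of -0.22 with the GC correction. In complex IV Cox6a2 was 358, 705, 408 and 792 CPM (-0.36), Cox7a1 60.7, 89.6, 49.4 and 126 (-0.48) and Cox8b 89.1, 131, 79.7 and 184 (-0.47). Cox7a2 was 94.9, 173, 116 and 224 CPM (0.44), Cox4i2 5.13, 5.99, 4.19 and 6.54 (-0.12) and Cox6b1 149, 249, 165 and 312 (-0.47). Among the rotor genes Atp5g1 was 316, 539, 314 and 806 CPM (-0.47), Atp5g2 81.1, 121, 90.2 and 153 (-0.08) and Atp5g3 379, 571, 392 and 937 (0.00). Over the 48 members replicate 1 was the lowest Irx3 library for 31 and replicate 3 for 16, and the summed muscle markers were 37110, 59070, 38330 and 65130 CPM in replicates 1 to 4.

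Of the isoform ratios 2 had groups fully apart between the vectors. Cox7a1 to Cox7a2 was -0.64, -0.95, -1.23 and -0.83 (log2) with the Irx3 vector, under all infarcted control libraries. The difference was -0.86 (exact permutation p = 0.0286, adjusted 0.0571). With the GC correction the log2 fold changes of the single genes were -0.09 for Cox7a1 and 0.62 for Cox7a2, against -0.48 and 0.44 without it. Atp5g1 to Atp5g3 was -0.26, -0.08, -0.32 and -0.22 with the Irx3 vector against 0.37, 0.23, 0.20 and 0.23 with the control vector. The difference was -0.48 (exact permutation p = 0.0286, adjusted 0.0571). With the GC correction the log2 fold changes of the single genes were 0.03 for Atp5g1 and 0.06 for Atp5g3, against -0.47 and 0.00 without it. Cox6a2 to Cox6a1 was 2.18, 3.12, 2.72 and 2.94 (difference 0.51, exact permutation p = 0.314, adjusted 0.343) and Cox8b to Cox8a was 0.19, 0.46, 0.19 and 0.81 (difference 0.24, exact permutation p = 0.8286, adjusted 0.8286). For the 4 pairs that had parted with infarction, the infarcted groups with and without the Irx3 vector overlapped. Atp5g2 to Atp5g3 differed by -0.09 between the vectors (exact permutation p = 0.714, adjusted 0.745). With the GC correction the log2 fold changes of the single genes were 0.44 for Atp5g2 and 0.06 for Atp5g3.

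The assembly and regulator lists had other counts in this comparison. Over all genes tested 25.2% were higher and 24.1% lower, and 13.3% and 12.3% with the GC correction. No list was tested as a set, and counts near these shares are not read as particular to a list. With the Irx3 vector 3 of 4 complex II factors were higher and none lower, and 0 were called with the correction (edgeR, 1 higher at an unadjusted p under 0.05). Of 6 complex III factors 2 were higher and 1 lower, with and without the correction. Of 28 complex IV factors 7 were higher and 3 lower, and 4 and 1 with the correction. Of 6 complex V factors 2 were higher and none lower (1 lower at an unadjusted p under 0.05, and 1 by DESeq2), and 0 were called with the correction (edgeR, 1 higher at an unadjusted p under 0.05). Lyrm7 was higher by a log2 fold change of 1.85 (SE 0.30 and edgeR adjusted p = 0.000313, and 1.24 with the GC correction) and Uqcc3 lower, at -0.88 (SE 0.17, and -0.62 with the correction). The copper chaperone Cox17 was 7.87 CPM ± 1.18 (SD, n = 4) against 2.57 ± 0.767 (log2 fold change 1.61, SE 0.27, and 1.49 with the correction), and Sco1, which inserts copper into complex IV, stood at 1.17 (SE 0.24, and 0.90). All 6 mitochondrially encoded subunits were higher, with a median of 2.88, and 3 with the GC correction, with a median of 1.75. The share of counts from mitochondrial genes was 0.926% to 5.64% in the infarcted control group and 10.4% to 19.0% in the infarcted Irx3 group, against 4.50% to 8.22% in sham hearts. Of the 20 regulators 8 were higher and 3 lower, and 3 and 1 with the GC correction. Gabpa was higher by 1.28 (SE 0.15, and 0.31 with the correction), Creb1 by 0.90 (SE 0.12, and 0.75) and Gabpb1 by 1.11 (SE 0.20, and 0.50, where it no longer passed), while the mitochondrial RNA polymerase Polrmt was lower, at -0.81 (SE 0.15, and -0.15, where it no longer passed). Ppargc1a, the gene of PGC-1alpha and named here after its values were seen, was lower at -1.63 (SE 0.48 and edgeR adjusted p = 0.0127, and -2.46 with the correction). Cardiomyocyte markers were higher in 1 and lower in 3 of 12 (1 and 0 with the correction, where none was lower at an unadjusted p under 0.05), with a summed level of 37110 to 65130 CPM in the infarcted Irx3 group, and fibroblast markers were lower in 3 of 10 and higher in none (4 and none with the correction), with a summed 3928 to 25640 CPM. Of 10 endothelial markers 3 were higher and 7 lower (1 and 3 with the correction), and of 10 macrophage and monocyte markers 1 was higher and 4 lower (0 and 1). Of 10 pericyte and smooth muscle markers 3 were higher and 3 lower (2 and 1), and of 4 measured brown fat markers 2 were higher and 1 lower (1 and 1). The part of these cell markers in the members' differences was not tested.

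Against sham hearts, infarcted hearts with the Irx3 vector had 35 of 48 members lower and none higher, where 27.7% of all genes were lower and 35.2% higher. None was higher at an unadjusted p under 0.05 or by DESeq2. The median log2 fold change was -0.96 against 0.12 for all genes, and 37 members were lower in every such library than in any sham library, against 27.6% of all genes. The comparison shares its sham libraries with the first and its Irx3 libraries with the second. All 4 complex II genes were lower, 6 of 9 in complex III, 14 of 17 in complex IV and 11 of 17 in complex V. Uqcr10 had the smallest p of complex III (log2 fold change -1.48 with SE 0.21, edgeR adjusted p = 6.67e-05), Cox4i1 of complex IV (log2 fold change -1.70 with SE 0.27, edgeR adjusted p = 0.000138), Atp5j2 of complex V (log2 fold change -1.65 with SE 0.26, edgeR adjusted p = 0.000139) and Sdhd of complex II (log2 fold change -1.32 with SE 0.26, edgeR adjusted p = 0.000728). Those genes stood at 35.9%, 30.9%, 31.8% and 40.0% of their sham level. Uqcrc1 stood at -1.85 here and -1.37 in the infarcted control group, and Sdha at -1.36 and -1.51. Cox6a1 and Cox8a, which had not passed under control vector, were lower, at -0.57 and -0.55 (edgeR adjusted p = 0.0106 and 0.0171), and stood at 0.06 and 0.07 with the GC correction.

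The other 13 members did not pass against sham, and 7 of them had been called lower under control vector. Those 7 were Cox6c at 95.5% of its sham level, Cycs at 88.9%, Atp5pb at 78.8%, Atp5c1 at 73.3%, Uqcrfs1 at 61.2%, Uqcrc2 at 59.4% and Atp5o at 58.1%. The 6 that had passed in neither comparison with sham were Atp5md at 125%, Uqcrb at 114%, Atp5mpl at 105%, Cox7a2 at 80.7%, Cox7a2l at 73.6% and Atp5l at 63.7%. Replicate 4 of the Irx3 group lay above every sham library for 8 of the 13, among them Cox6c (422 CPM), Cycs (446), Atp5pb (714), Uqcrb (142), Atp5md (125) and Atp5mpl (104). With the GC correction 2 of the 13 were called lower, Uqcrc2 (-1.31) and Cycs, and Uqcrb and Atp5mpl stood at -0.61 and -0.65. With the GC correction 29 members were lower (21.7% of all genes), 27 of them among the 35, and Cycs was among those lower (-1.15, edgeR adjusted p = 0.00401). Without both replicates numbered 4 it was 44, including all 35 (30.1% of all genes), and beyond 1.5-fold it was 23 (13.2% of all genes). The isoform ratios that lay fully apart from sham were Cox7a1 to Cox7a2 (difference -1.55), Cox6a2 to Cox6a1 (-1.15), Cox8b to Cox8a (-1.02), Cox4i1 to Cox4i2 (-0.93), Atp5g1 to Atp5g2 (-0.81) and Atp5g1 to Atp5g3 (-0.62), each with an exact permutation p of 0.0286 (adjusted 0.0571). Atp5g2 to Atp5g3 overlapped, at a difference of 0.19. With the GC correction the log2 fold changes of the single genes were -1.15 for Atp5g1, -0.40 for Atp5g2 and -0.94 for Atp5g3. Without it they were -1.70, -0.95 and -1.09. Of the complex III assembly factors 4 of 6 were lower than in sham (2 with the GC correction), of the complex IV factors 13 of 28 lower and 4 higher (13 and 3), and of the complex V factors 3 of 6 lower (5). Over all genes tested 27.7% were lower and 35.2% higher, and 21.7% and 32% with the GC correction. No complex II factor was called in either direction in edgeR or DESeq2 or had an unadjusted p under 0.05, but with the GC correction Sdhaf3 was lower (-1.08, edgeR adjusted p = 0.00237). Of the mitochondrially encoded subunits 2 of 6 were higher, with a median log2 fold change of 0.65 that stood at -0.48 with the GC correction. Of the 20 regulators 6 were higher and 7 lower, and 4 and 10 with the GC correction, where Gabpa went from called higher (0.61, edgeR adjusted p = 0.00271) to called lower (-0.29, 0.0105).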

How the data were processed

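The authors deposited 1 table of raw counts per gene for the 12 libraries. The submitters' processing notes name fastp, used per the labels to remove adapters and poor reads, and the build GRCm39 (mm39). No source used here names the aligner, counter, annotation release or strand setting. The members, lists and tests were chosen with earlier results of these data known.

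TMM factors and the robust quasi-likelihood test of edgeR 4.0.16 (R 4.3.3) were used on the counts, with a mean for each group and 9 residual degrees of freedom. The filterByExpr filter left 15742 genes. A call is an adjusted p (Benjamini-Hochberg, all tested genes) under 0.05. Repeat symbols held 0.00113% of counts. No pair of libraries agreed within sampling noise (smallest chi-square per degree of freedom 7.31). Nothing in the labels ties the 4 libraries of a group to separate mice, so p-values measure the spread between libraries. SE is the size of the log2 fold change over the square root of F. Log2 ratios used a prior count of 1 and are given without the GC correction. The GC-corrected values beside them are fold changes of single genes.

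GC content and length were read from GENCODE M21 (GRCm38) by symbol, for 97.75% of tested genes and all 51 members, and GC entered as a spline offset for each library with 6 degrees of freedom. Promoters came from RefSeq on GRCm38.p6, and no coordinate was carried between builds. Alternatives were RLE and upper-quartile factors, DESeq2 1.42.0, no filter, only the groups compared, mitochondrial genes removed, the GC offset, replicate number as a block, glmTreat at 1.5-fold, each library left out, both replicates numbered 4 left out, and prior counts of 0.5 and 5. The main edgeR fit was run on simulated counts, where it recovered 64% to 68% of 2-fold changes and 92% to 97% of 4-fold changes. That simulation held no GC trend and no outlying library. The GC offset, the permutation test and the other alternatives were not simulated. Genes with values in every library are complex II, Cyc1, Cycs, the isoform pairs, the member of each complex with the smallest p in each comparison, and members called with opposite signs in the first 2 comparisons. Listed genes of other kinds are at most 4 per list and comparison, by smallest p. Outside these rules, the values of Uqcrb by library, Ppargc1a, Esrra, and Gabpa against sham were chosen after they were seen.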

Additional observations from a re-analysis of the deposited data

Results flagged for a closer look

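In 6 of 168 groups of 4 libraries, 1 library lay far from the other 3 by Dixon's 95% criterion, where chance gives about 1 in 20. In the infarcted control group replicate 4 was low for Cox4i1 (9.44 log2 CPM against 10.18 to 10.28), Cox6a2 (8.63 against 9.63 to 9.81) and Cox6b1 (7.67 against 8.32 to 8.44). The log2 ratio of Atp5g2 to Atp5g3 was high in the same library, at -1.74 against -2.42 to -2.32. In the infarcted Irx3 group replicate 4 was high for Uqcrb, at 7.15 log2 CPM against 5.94 to 6.13. In sham hearts the ratio of Atp5g2 to Atp5g3 was low in replicate 3, at -2.55 against -2.48 to -2.46, a narrow range.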

How the results depend on the processing

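The 39 of 48 members lower with infarction under control vector were 35 to 41 under other factors, tests and filters, the GC correction, the replicate block and without both replicates numbered 4, 36 to 45 with a library left out, and 11 under glmTreat at 1.5-fold. Without both replicates numbered 4 and with the GC correction 1 member was called higher. Against sham with the Irx3 vector, 35 calls were 23 under glmTreat, 29 to 44 under the other settings and 31 to 40 with a library left out. For fits with a library left out, here and below, the shares of all genes called are not given. The same holds for RLE and upper-quartile factors, DESeq2, no filter, mitochondrial genes removed, only the groups compared and the replicate block. Counts under these settings are not read as particular to the members.

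The comparison of the Irx3 vector with control vector moved most. Its 9 calls became 3 with the GC correction, 1 under glmTreat, 5 with only the groups compared, 24 without both replicates numbered 4, 19 without them and with the GC correction, and 4 to 17 with a library left out. Lower calls (6) were 3, 1, 24 and 19 under the GC correction, glmTreat and the fits without replicates 4, and 4 to 17 with a library left out. Higher calls (3) were 0 in edgeR under each of those settings, without the filter and with only the groups compared. In those fits 0 to 4 members were higher at an unadjusted p under 0.05. With a library left out, higher calls were 0 to 7. They were again 3 by DESeq2, and in edgeR with RLE factors, with upper-quartile factors and with mitochondrial genes removed. All calls numbered 11, 9 and 10 with those edgeR changes in turn, 12 by DESeq2 and 8 without the filter. The cause was not tested.

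Same-numbered libraries of different groups had residual correlations from -0.421 to 0.0966, so the numbers were not read as pairs. With a replicate block the Irx3 comparison had 5 calls, 0 of them higher, and with the block and the GC correction 1 call, 0 higher (edgeR, 2 members higher at an unadjusted p under 0.05 in each). An exact sign-flip test over same-numbered libraries cannot give a p under 0.125 for an isoform ratio.

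Some members changed sign. In the Irx3 comparison Atp5g3 stood at -0.58 without both replicates numbered 4 and -0.49 with the GC correction added, and under that second setting Uqcrc2 stood at -0.63, Cycs at -0.73, Cox7b at -1.18 and Uqcrb at -0.0833. Cox7b stood at -0.79 with the GC correction alone. Against sham, Uqcrb stood at -0.92 and Atp5mpl at -0.88 under that second setting, Cox8a at 0.0723 and Cox6a1 at 0.0624 with the GC correction, and at 0.0606 and 0.0471 with the block added. The cause was not tested. The lowest adjusted p of an isoform ratio was 0.0571 with all libraries and with prior counts of 0.5 or 5. That value is set by the smallest p the exact permutation test can give and by how many tests reach it. Low counts limit Cox6b2, Cox7b2 and Cox8c.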
